A study of Mus musculus with 11 samples.

Results

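The genes described here encode the enzymes that cut extracellular matrix and the inhibitors that hold them in check: the matrix metalloproteinases (Mmp), the secreted Adamts proteases, the Adamts-like proteins (Adamtsl) and the tissue inhibitors of metalloproteinases (Timp). Genes were taken by name from the deposited count table, and 51 rows matched. Of these, 42 had at least 10 counts summed over all livers and were kept: 17 Mmp, 16 Adamts, 5 Adamtsl and 4 Timp genes, of 55414 rows in all. Mmp10, Mmp20, Mmp16 and Mmp21 were left out with 1, 2, 4 and 5 counts, and Adamts8, with 22 counts, had the fewest among those kept. Adamts18, Adamts19, Adamts20, Mmp1a and Mmp1b had no count in any liver.

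RNA of whole liver was sequenced from 11 male Clec4f-DTR mice, in which the promoter of the Kupffer cell gene Clec4f drives a receptor for diphtheria toxin (DT). Mice were 8 weeks old when their diets began and 16 weeks on them. The first group had western diet with alcohol and serial DT injections (DT livers, n = 4), the second the same diet with serial saline injections (saline livers, n = 4) and the third a chow diet (chow livers, n = 3). The chow labels name no injections, and no group lacks the receptor, so other effects of DT cannot be told apart from the loss of Clec4f-expressing cells.

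Matrix metalloproteinases are made as inactive precursors, and zinc in the active site does the cutting once the propeptide is removed. The Timp proteins bind the active site and block it. Adamts proteases act mostly on proteoglycans, procollagens and clotting proteins, and the Adamts-like proteins share their binding domains but lack the protease. In scarred liver, much of this system is made by activated stellate cells, portal fibroblasts and macrophages.

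Totals ran from 43995217 to 58089531 counts per liver. Values are TMM-normalised CPM, counts scaled to the size of each library, and a count of 3 corresponds to 0.0397 to 0.0772 CPM, a limit for counting error only. In each liver 76.6 to 81.5% of the counts from 1 to 20 were even numbers. Whether counts come in pairs was not tested, and if they do, the limit and the intervals given for low counts are too narrow. Clec4f stood at 9.06, 15.2, 7.51 and 6.18 CPM in DT livers 1 to 4, against 46.6, 49.1, 43.1 and 44.9 CPM in saline livers 1 to 4 and 47.5, 50.3 and 37.1 CPM in chow livers 1 to 3. Summed levels of 6 hepatocyte markers were 63708 to 85082 CPM in DT, 80383 to 94159 CPM in saline and 95310.3 to 114949 CPM in chow livers. DT liver 2 stood apart from the other DT livers across the most variable genes, and calls that change without it are named. Its first principal component over these genes was -14.2, against 71.8, 62.5 and 65.9 in DT livers 1, 3 and 4. It lay within the range of the saline livers (-31.0 to -10.3). Differences were tested with edgeR's quasi-likelihood test over 17038 genes, and a gene is said to have risen or fallen when its Benjamini-Hochberg adjusted p was below 0.05. The labels do not say more of how the livers were obtained, so p-values measure the spread between these livers. In whole liver RNA, more cells of a type and more RNA per cell cannot be told apart.

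Several of the genes stand together on chromosome 9, and the stretches before their starts are shown because Mmp7, Mmp3, Mmp12 and Mmp13 there had the largest log2 fold changes of the Mmp genes in at least 1 of the comparisons below. The RefSeq table of promoters (GRCm38.p6, an earlier build than the authors' alignment) held a start for 29 of the 42 genes. Each line spans the annotated start, 5′ to 3′ on the plus strand, and capitals mark TGANTCA, the site bound by AP-1 factors, which is the same on both strands.
Mmp7 (chr9:7691840-7692139): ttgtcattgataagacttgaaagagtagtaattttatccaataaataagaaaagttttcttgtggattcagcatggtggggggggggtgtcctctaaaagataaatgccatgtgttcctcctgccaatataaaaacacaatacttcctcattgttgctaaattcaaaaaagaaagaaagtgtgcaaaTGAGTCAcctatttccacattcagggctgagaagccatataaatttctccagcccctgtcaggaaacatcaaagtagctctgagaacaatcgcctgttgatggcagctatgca
Mmp3 (chr9:7445572-7445871): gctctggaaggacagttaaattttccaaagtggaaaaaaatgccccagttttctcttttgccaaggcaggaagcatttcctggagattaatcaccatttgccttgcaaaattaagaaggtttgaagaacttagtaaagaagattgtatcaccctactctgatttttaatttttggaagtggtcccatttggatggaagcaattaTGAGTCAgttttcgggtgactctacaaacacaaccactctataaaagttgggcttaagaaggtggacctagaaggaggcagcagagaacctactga
Mmp12 (chr9:7347124-7347423): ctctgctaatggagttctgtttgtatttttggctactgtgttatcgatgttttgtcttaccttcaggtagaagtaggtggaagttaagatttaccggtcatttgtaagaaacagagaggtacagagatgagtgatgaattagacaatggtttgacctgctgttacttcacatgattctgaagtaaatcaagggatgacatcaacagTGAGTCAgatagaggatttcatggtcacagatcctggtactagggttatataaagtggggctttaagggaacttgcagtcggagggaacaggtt
Mmp13 (chr9:7272264-7272563): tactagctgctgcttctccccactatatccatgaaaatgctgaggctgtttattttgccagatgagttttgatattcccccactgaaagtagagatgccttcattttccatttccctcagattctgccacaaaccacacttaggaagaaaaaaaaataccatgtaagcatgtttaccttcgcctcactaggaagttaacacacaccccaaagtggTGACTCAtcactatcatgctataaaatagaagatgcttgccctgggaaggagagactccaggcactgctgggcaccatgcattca
The site began 63 bases before the start of Mmp7, 46 before that of Mmp3, 44 before that of Mmp12 and 35 before that of Mmp13. For Mmp7 and Mmp12 the table has a further start without the site. TGANTCA stood in 7.81% of the 32851 promoters of the table. It stood in 8 of the 10 Mmp genes of chromosome 9 that the table holds, which include genes with almost no counts here (Mmp10, Mmp1a, Mmp1b and Mmp20), and in none of the other 23 kept genes with a promoter in it. TATAAA stood in 9 of those 10 Mmp genes and in 2 of the other 23 genes, against 13.6% of all promoters. These matches describe letters and not binding.

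The comparison of DT with saline livers asks what followed the removal of Clec4f-expressing cells on the same diet. Both proteases and inhibitors rose. Mmp7, Mmp3 and Mmp2 led the metalloproteinases, Adamts2 and Adamts14 (procollagen processing) and each tested proteoglycan-cutting Adamts rose, and so did Adamtsl2, Timp2 and Timp3. Of these, limma-voom called neither Mmp7, Mmp2 and Adamts14 nor any of the proteoglycan-cutting Adamts genes. Mmp12, Mmp9, Mmp19 and Timp1 were not called, and no gene of the set fell. DT livers 1 to 4 were above all saline livers in 30, 10, 30 and 33 of the 39 tested genes, and DT liver 2 was within the range of the saline livers in 24. The same counts were not made over all tested genes, so they do not show what is particular to the set.

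Of the 42 genes, 39 passed the filter on low counts. In DT over saline livers, 21 rose, none fell (also none at an unadjusted p below 0.05, by DESeq2 or by limma-voom) and 18 were not called, beside 14.3% of all tested genes that rose and 7.62% that fell. By family, 6 of 17 Mmp, 9 of 14 Adamts, 4 of 5 Adamtsl and 2 of 3 Timp genes rose. The median log2 fold change of the 39 genes was 1.55, against 0.02 over all tested genes. Mmp3, Mmp7 and Adamts16 reached the filter's level of 0.19 CPM in DT livers only, so they could enter the test only by being high there. Timp1, Mmp25 and Mmp8 also needed the DT livers to pass. They reached the level in 4, 3 and 4 DT livers, 2, 2 and 0 saline livers and 0, 0 and 1 chow livers. Of the 36 genes other than Mmp3, Mmp7 and Adamts16, 18 rose, and Timp1, Mmp25 and Mmp8 were not among them. Without DT liver 2 the count was 25, with Adamts12, Adamts3, Adamtsl4 and Timp1 added to the 21. It was 13 to 20 when any other liver was left out. The share of all tested genes called was 21.9% with all livers, 40.3% without DT liver 2 and 10.5 to 18.8% without any other liver. limma-voom called 11, of which 10 were among the 21. The others of the 21, Adamts1, Adamts4, Adamts5, Adamts9, Adamts14, Adamts15, Adamts16, Adamtsl3, Mmp2, Mmp7 and Mmp24, were not called by it.

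**Figure D1:**
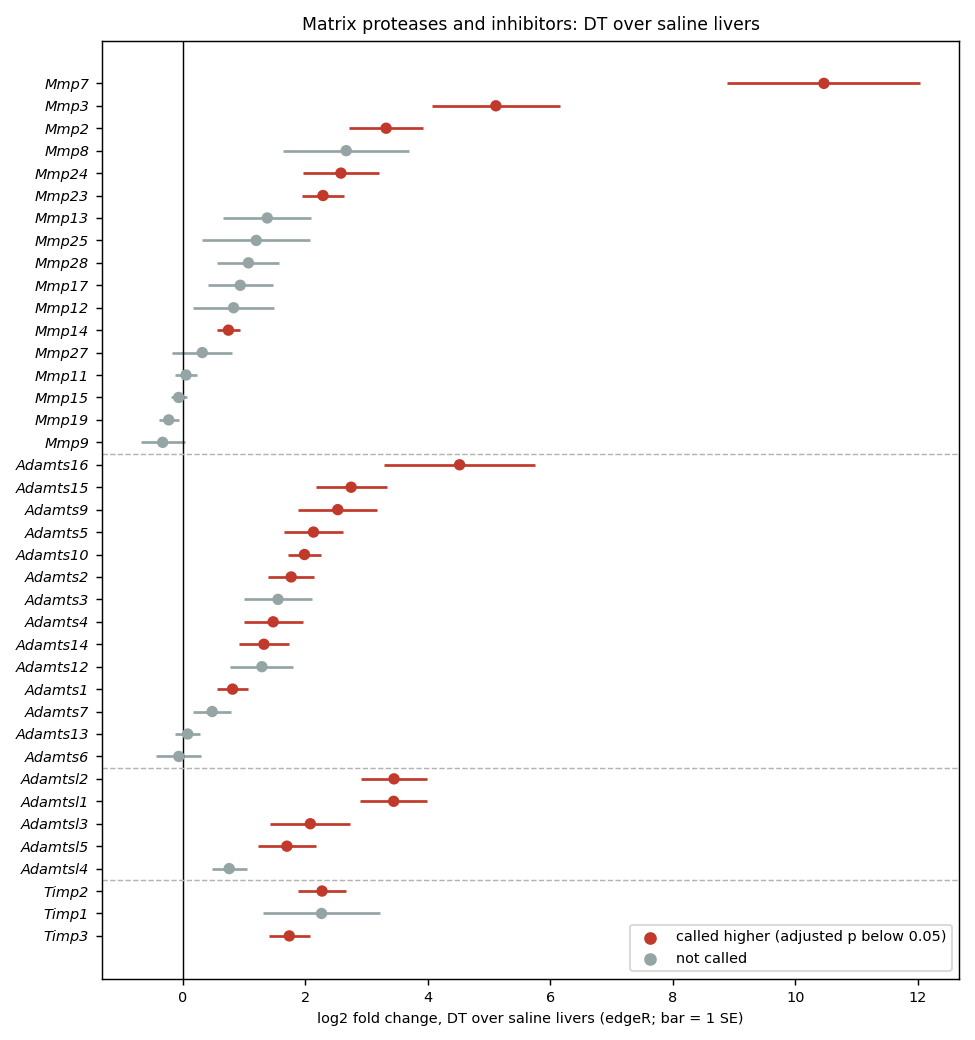
Log2 fold change of DT over saline livers (x axis) for the 39 tested genes, grouped by family from Mmp at the top to Timp at the bottom and ordered by size within each. Points are edgeR estimates, bars 1 SE, red marks the 21 genes called higher, and the 18 grey genes were not called.

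Among the metalloproteinases, Mmp7 (matrilysin, a small enzyme known from duct and gland epithelia) showed the largest difference. It stood at 30.3, 0.166, 11 and 28.3 CPM in DT livers 1 to 4, against 0, 0, 0 and 0.0426 CPM in saline livers 1 to 4 and 0.103, 0.164 and 0.0461 CPM in chow livers 1 to 3. DT livers 1, 3 and 4 were far above all others, and DT liver 2 was at the level of the highest chow liver. Over the groups this was 4957 counts in DT and 2 counts in saline livers, a ratio of 1896 with a 95% exact binomial interval of 525 to 15658 (adjusted p = 0.00442). The interval covers counting error only, and without DT liver 1, 3 or 4 the gene no longer passed the filter and was not tested. limma-voom did not call it (adjusted p = 0.256), and with DT and saline livers alone it did not pass the filter. The 6 cholangiocyte markers moved with it: all 6 rose, 3 of them also by limma-voom. Their summed level was 350.2, 27.9, 225 and 400.2 CPM in DT livers 1 to 4, against 20.1 to 45.7 CPM in saline and 20.4 to 32.7 CPM in chow livers. Most of the sum in DT livers was Spp1 (272.7, 19.7, 174 and 313 CPM in DT livers 1 to 4). Spp1 is also on the list of lipid-associated macrophage markers used below. Krt19, a keratin of bile ducts, was at 11.6, 0.749, 7 and 9.80 CPM in the DT livers, in the same order as Mmp7, a match chosen after the values were seen. The part of duct cells in the Mmp7 result was not tested.

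Mmp3 (stromelysin-1, which cuts many matrix proteins and activates other proenzymes) had 0.836, 0.291, 0.409 and 0.159 CPM in DT livers 1 to 4, against 0.0408, 0, 0 and 0 CPM in saline and 0, 0 and 0.0461 CPM in chow livers. All DT livers, liver 2 included, were above all others, though at a low level. Summed counts were 111 in DT and 2 in saline livers, a ratio of 42.5 with a 95% exact binomial interval of 11.5 to 355 (adjusted p = 0.00916). Mmp11 (stromelysin-3) did not differ in this way, at 4.24 to 7.12 CPM in DT livers and 4.94 to 5.99 CPM in saline livers (log2 fold change 0.05, adjusted p = 0.863).

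Mmp2 (gelatinase A, made by stromal cells and active on gelatin and basement membrane collagen) had 38.6, 3.33, 25.6 and 36.7 CPM in DT livers 1 to 4, against 2.20, 1.46, 4.13 and 2.64 CPM in saline and 1.70, 2.17 and 1.57 CPM in chow livers. DT liver 2 lay within the saline range, and the other DT livers lay far above every saline liver. The log2 fold change was 3.32 (SE 0.60, adjusted p = 0.00690), and limma-voom did not call it (adjusted p = 0.0502). Mmp9, the other gelatinase and a product of neutrophils and macrophages, was at 0.851, 0.583, 0.904 and 0.756 CPM in DT livers, against 1.18, 0.610, 1.17 and 0.937 CPM in saline and 1.08, 0.860 and 0.369 CPM in chow livers. The groups overlapped (log2 fold change -0.33, SE 0.36, adjusted p = 0.522), and the sign turned under total count scaling (0.02). Of 8 neutrophil markers, 4 were tested and 1 rose (Retnlg, 1.86, adjusted p = 0.0480). Their summed level was 1.21 to 6.30 CPM in DT, 0.773 to 2.67 CPM in saline and 1.03 to 1.88 CPM in chow livers, and their part in the level of Mmp9 was not tested.

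Of the 6 membrane-bound Mmp genes, Mmp14, Mmp23 and Mmp24 rose. Mmp14 binds Timp2 at the cell surface and in that complex activates the Mmp2 precursor. It had 74.3, 51.4, 95.7 and 75.7 CPM in DT livers 1 to 4, against 52.0, 40.8, 44 and 40.8 CPM in saline and 68.3, 66.3 and 46.8 CPM in chow livers. Its rise over saline was small (log2 fold change 0.74, SE 0.18, adjusted p = 0.0175) and ended without saline liver 2 or 4 (adjusted p = 0.0557 and 0.0544). Chow livers 1 and 2 were above the 4 saline livers, and Mmp14 was not called in DT over chow livers. Mmp23 was at 3.76, 1.64, 4.65 and 4.29 CPM in DT livers, against 0.530, 0.895, 0.622 and 0.894 CPM in saline and 0.515, 0.491 and 0.600 CPM in chow livers. All DT livers were above all others (log2 fold change 2.29, SE 0.34, adjusted p = 0.00433). Mmp24 was at 1.12, 0.375, 3.23 and 1.30 CPM in DT livers, against 0.285, 0.0814, 0.256 and 0.383 CPM in saline and 0.180, 0.164 and 0.0923 CPM in chow livers (log2 fold change 2.58, adjusted p = 0.0159). DT liver 3 was highest, and DT liver 2 was within the saline range. In an annotation of an earlier build, 13.6% of Mmp24 exon bases overlap BC029722 on the other strand, a gene at 18.2 to 28.1 CPM in DT and saline livers, and reads of the 2 cannot be told apart because no strand setting is stated.

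Mmp15, a further membrane-bound protease, and the secreted Mmp19 had high levels in every liver. Mmp15 had 50.6, 65.3, 55.0 and 53.5 CPM in DT livers 1 to 4, against 51.5, 54.8, 73.1 and 56.0 CPM in saline and 32.4, 39.2 and 40.9 CPM in chow livers. DT and saline livers overlapped, and both stood above all chow livers. The log2 fold change of DT over saline was -0.07 for Mmp15 and -0.23 for Mmp19 (adjusted p = 0.729 and 0.331). Mmp19 was at 56.7 to 95.3 CPM in DT, 76.9 to 103 CPM in saline and 58.7 to 71.5 CPM in chow livers, and per kilobase of exon it had the highest mean level of the set in each group (22.1, 25.9 and 18.4 CPM per kb in DT, saline and chow livers). Tmem198b, at 3.64 to 6.55 CPM, overlaps 22.3% of its exon bases on the other strand.

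**Figure D2:**
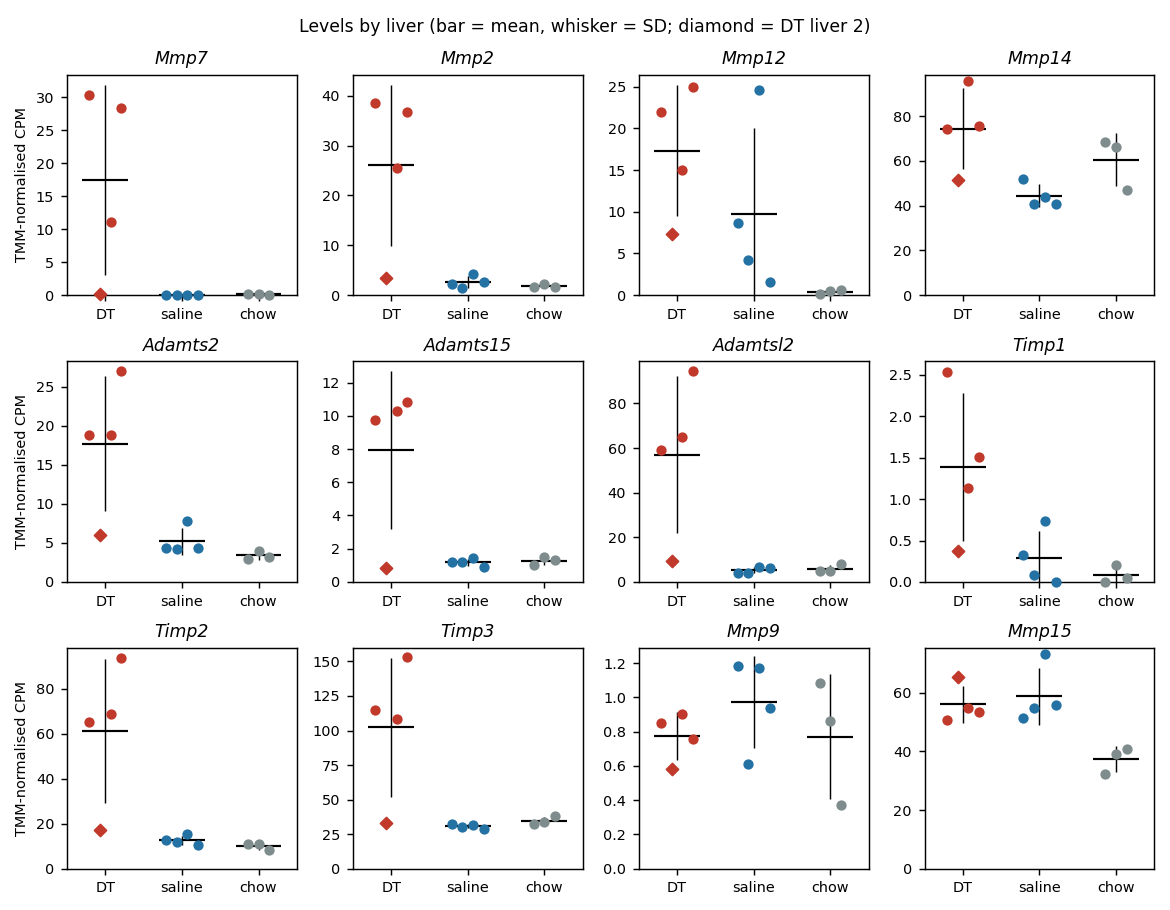
TMM-normalised CPM (y axis, from 0, scaled per gene) of 12 genes in each liver, for DT, saline and chow livers from left to right. Lines are group means and whiskers SD, ended at 0 (n = 4, 4 and 3), and diamonds mark DT liver 2, which lies with the saline livers for Mmp2, Adamts2 and Adamts15 while the other DT livers lie above them.

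The Adamts genes that process procollagen rose in part. Adamts2, the main remover of the amino-terminal propeptide of collagen I, had 18.8, 6.08, 18.9 and 27.1 CPM in DT livers 1 to 4, against 4.36, 4.27, 7.79 and 4.39 CPM in saline and 2.99, 4.01 and 3.18 CPM in chow livers. DT liver 2 was within the saline range (log2 fold change 1.77, SE 0.37, adjusted p = 0.0103). Adamts14, of the same function, was at 1.31, 0.936, 3.46 and 3.15 CPM in DT livers, against 0.734, 0.834, 1.17 and 0.809 CPM in saline and 1.13, 0.655 and 0.900 CPM in chow livers. DT livers 3 and 4 were well above all others, and DT liver 2 was within the saline range (log2 fold change 1.32, adjusted p = 0.0413). Adamts3, the third of the group, was at 0.166 to 0.932 CPM in DT livers and 0.0852 to 0.326 CPM in saline livers and was not called (log2 fold change 1.55, adjusted p = 0.0663), but it was called higher without DT liver 2, by DESeq2 and under total count scaling.

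All 5 tested proteoglycan-cutting proteases rose, and DT liver 2 was the lowest DT liver for each. limma-voom called none of the 5, and DT and saline livers overlapped in each. Adamts15 had 9.73, 0.832, 10.3 and 10.8 CPM in DT livers 1 to 4, against 1.18, 1.22, 1.43 and 0.894 CPM in saline and 1.03, 1.47 and 1.29 CPM in chow livers. DT liver 2 was below every saline liver, while the other DT livers lay close together (log2 fold change 2.75, SE 0.58, adjusted p = 0.0103). Adamts9 was at 12.2, 0.874, 8.85 and 17.8 CPM in DT livers, against 1.71, 1.5, 2.60 and 1.06 CPM in saline and 1.03, 0.819 and 0.600 CPM in chow livers (log2 fold change 2.53, adjusted p = 0.0192). Adamts5, an aggrecanase, was at 6.45, 1.87, 11.1 and 15.7 CPM in DT livers, against 2.12, 2.03, 1.83 and 2.04 CPM in saline and 1.29, 1.60 and 0.969 CPM in chow livers (log2 fold change 2.13, adjusted p = 0.0127). For both, DT liver 2 was again below or within the saline livers and DT liver 4 was highest. Adamts4, the other classical aggrecanase, was at 2.76, 0.791, 2.89 and 3.51 CPM in DT livers, against 1.26, 0.488, 1.28 and 0.554 CPM in saline and 0.567, 0.287 and 0.277 CPM in chow livers (log2 fold change 1.47, adjusted p = 0.0479). Adamts1, which cuts versican, was at 22.1, 12.6, 35.6 and 27.9 CPM in DT livers, against 13.2, 12.6, 17.7 and 12.6 CPM in saline and 8.47, 10.1 and 8.01 CPM in chow livers (log2 fold change 0.81, adjusted p = 0.0426). DT livers 1, 3 and 4 were above all others in both genes. Adamts8, with 22 counts in all, was not tested.

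Among the remaining Adamts genes, Adamts10, a microfibril-associated protease, had 12.0, 7.89, 16.4 and 21.5 CPM in DT livers 1 to 4, against 3.61, 3.19, 4.17 and 3.62 CPM in saline and 4.43, 3.89 and 3.11 CPM in chow livers. Each DT liver was above all others, liver 2 included (log2 fold change 1.98, SE 0.27, adjusted p = 0.00333). Adamts16 was at 1.40, 0, 0.452 and 1.03 CPM in DT livers, against 0.0408, 0, 0.0732 and 0 CPM in saline and 0, 0.0409 and 0 CPM in chow livers (adjusted p = 0.0246). It had 204 counts in DT livers, none of them in liver 2, against 6 in saline livers, and its rise rests on DT livers 1, 3 and 4. Adamts13, the protease of von Willebrand factor, for which stellate cells are the main liver source, was at 4.49 to 5.74 CPM in DT livers and 4.15 to 6.09 CPM in saline livers (log2 fold change 0.08, SE 0.20, adjusted p = 0.808). Adamts7 and Adamts12, which cut cartilage oligomeric matrix protein, were not called (log2 fold change 0.48 and 1.29, adjusted p = 0.282 and 0.0918), nor was Adamts6 (-0.07, adjusted p = 0.911). Adamts12 was called higher without DT liver 2 and under total count scaling. Adamts17 stayed at or below 0.203 CPM in every liver and was not tested.

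Adamtsl2, a protein without protease activity that binds fibrillin and a TGF-beta binding protein, had 59.2, 9.45, 65.1 and 94.3 CPM in DT livers 1 to 4, against 4.12, 3.90, 6.88 and 6.03 CPM in saline and 4.84, 5.10 and 8.03 CPM in chow livers. Each DT liver was above all others, and the log2 fold change was 3.45 (SE 0.54, adjusted p = 0.00486). Adamtsl1 was at 6.69, 0.999, 6.11 and 7.98 CPM in DT livers, against 0.408, 0.407, 0.713 and 0.468 CPM in saline and 0.798, 0.450 and 0.369 CPM in chow livers, also without overlap (log2 fold change 3.44, SE 0.55, adjusted p = 0.00534). These were the largest fold changes of the Adamts-like genes. Adamtsl3 was at 1.28, 0.333, 1.27 and 1.64 CPM in DT livers, against 0.285, 0.366, 0.329 and 0.0852 CPM in saline and 0, 0.0819 and 0 CPM in chow livers (log2 fold change 2.08, adjusted p = 0.0418). Adamtsl5 was at 1.43, 0.749, 2.13 and 2.96 CPM in DT livers, against 0.489, 0.529, 0.878 and 0.341 CPM in saline and 0.206, 0.614 and 0.554 CPM in chow livers (log2 fold change 1.70, adjusted p = 0.0272). In both, DT liver 2 was within the saline range and the other DT livers were above it. Adamtsl4, which takes part in fibrillin fibres, was at 2.66 to 5.95 CPM in DT livers and 2.13 to 3.27 CPM in saline livers and was not called (log2 fold change 0.76, adjusted p = 0.0771), but it was called higher without DT liver 1 or 2, by DESeq2 and under total count scaling.

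Of the 4 inhibitors, Timp2 and Timp3 rose, Timp1 was not called and Timp4 was not tested. Timp2, which blocks most metalloproteinases and takes part in activating Mmp2, had 65.1, 17.2, 68.7 and 93.6 CPM in DT livers 1 to 4, against 12.9, 12.1, 15.3 and 10.5 CPM in saline and 10.8, 10.8 and 8.12 CPM in chow livers. Each DT liver was above all others, liver 2 by little, and the log2 fold change was 2.27 (SE 0.38, adjusted p = 0.00624). Timp3, which is held in the matrix and also blocks Adamts proteases, was at 115, 33.2, 109 and 153 CPM in DT livers, against 32.6, 30.2, 31.3 and 28.8 CPM in saline and 32.4, 33.9 and 38.0 CPM in chow livers. DT liver 2 was above the saline livers by less than 1 CPM and was within the chow range (log2 fold change 1.74, SE 0.33, adjusted p = 0.00808). Syn3 overlaps 21.3% of Timp3 exon bases on the other strand and was at 0.575 to 1.39 CPM over all livers.

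Timp1, an inhibitor often measured in fibrotic liver, was far lower per kilobase of exon than Timp2 or Timp3 (1.56, 15.7 and 12.6 CPM per kb in DT livers for Timp1, Timp2 and Timp3). It had 2.54, 0.375, 1.13 and 1.51 CPM in DT livers 1 to 4, against 0.326, 0.0814, 0.732 and 0 CPM in saline and 0, 0.205 and 0.0461 CPM in chow livers. Saline liver 3 was above DT liver 2, and Timp1 was not called (log2 fold change 2.26, SE 0.95, adjusted p = 0.106) except without DT liver 2 (adjusted p = 0.0463). Timp4 had 144 counts in DT livers, of which DT liver 4 held 130, and none in any saline or chow liver. It did not pass the filter. Against 3 counts over the saline group its level in DT livers was at least 36.7-fold higher, a value that rests on DT liver 4.

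**Figure D3:**
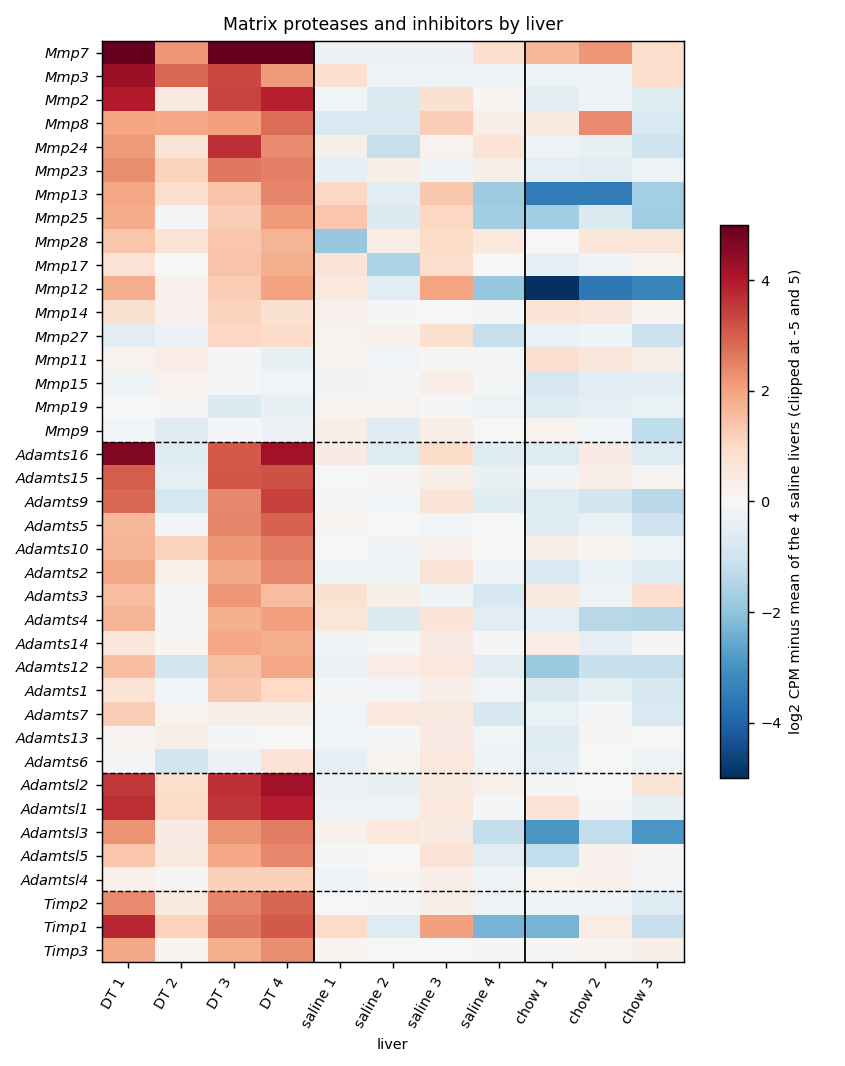
Log2 CPM minus the mean of the 4 saline livers (colour, clipped at -5 and 5) for the 39 tested genes (rows, by family) in DT, saline and chow livers (columns, left to right). DT livers 1, 3 and 4 are red over most rows and DT liver 2 is pale, while Mmp12 and Mmp13 are blue in chow livers.

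How the livers of the DT group differed among themselves was much the same from gene to gene. DT liver 2 was the lowest DT liver in 33 of the 39 tested genes and in 20 of the 21 that rose, the exception being Mmp3. It was above all saline livers in 8 of these 21 genes (Adamts10, Adamtsl1, Adamtsl2, Mmp23, Mmp3, Mmp7, Timp2 and Timp3), whereas DT livers 1, 3 and 4 were above all saline livers in 21 of 21 each, a count that the choice of genes that rose partly fixes. The median log2 difference of these 21 genes from the saline mean was 2.26, 0.42, 2.45 and 2.55 in DT livers 1 to 4, and over all tested genes it was 0.03, 0.03, 0.03 and 0.04. DT liver 4 was the highest DT liver in 12 of the 21. None of these counts by liver was made over all tested genes. In the tested set of 39, DT and saline livers did not overlap in 9 genes, all higher in DT. Of all tested genes, 9.33% were higher and 9.97% were lower without overlap. The 9 include Mmp3, Mmp7 and Mmp8, which needed the DT livers to pass the filter, so the count is partly fixed by it. DT liver 2 also had the highest Clec4f among the DT livers.

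Several calls near the threshold were lost when 1 liver was left out, for some genes whichever of most livers it was. Adamts4 was kept only without DT liver 2 (adjusted p = 0.00330), and its highest adjusted p was 0.127, without saline liver 2. Adamts1 was kept only without DT liver 2 or saline liver 3 (adjusted p = 9.05e-04 and 0.0410), and Adamts14 only without DT liver 1 or 2 (adjusted p = 0.0301 and 0.00411). The highest adjusted p of both came without DT liver 3 (0.120 and 0.122). Adamtsl3 lost its call without any 1 of saline livers 1 to 4 or DT livers 1, 3 and 4 (highest adjusted p = 0.106), and Adamtsl5 without saline liver 1, 2 or 4 or DT liver 3 or 4 (highest adjusted p = 0.0844). Adamts9 lost it without saline liver 1, 2 or 4 or DT liver 4 (highest adjusted p = 0.0652). Adamts16 lost it without saline liver 1, 2 or 4 (highest adjusted p = 0.0713) and was not tested without DT liver 1, 3 or 4. Of the 21 genes, 13 were called in every refit without 1 liver in which they were tested: Mmp2, Mmp3, Mmp7, Mmp23, Mmp24, Adamts2, Adamts5, Adamts10, Adamts15, Adamtsl1, Adamtsl2, Timp2 and Timp3. Mmp3 and Mmp7 passed the filter only through the DT livers, and Mmp7 was tested in 8 of the 11 refits.

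Mmp14, Timp2 and Mmp2 act together in the activation of Mmp2, so their levels were compared per kilobase of exon in each liver. Exon lengths came from the earlier annotation. Mmp14 exceeded Timp2 in DT liver 2 and in all saline and chow livers, and Timp2 exceeded Mmp14 in DT livers 1, 3 and 4. The ratio of Mmp14 to Timp2 was 0.746, 1.96, 0.911 and 0.529 in DT livers 1 to 4, against 2.64, 2.21, 1.89 and 2.55 in saline livers 1 to 4 and 4.13, 4.01 and 3.76 in chow livers 1 to 3. It was thus highest in each chow liver, intermediate in the saline livers and DT liver 2, and below 1 in the other DT livers. The ratio of Mmp2 to Timp2 was 0.686, 0.224, 0.430 and 0.453 in DT livers, against 0.198, 0.140, 0.313 and 0.291 in saline and 0.182, 0.232 and 0.223 in chow livers. DT livers 1, 3 and 4 were above all others in it, and DT liver 2 was not. These ratios of RNA were picked after the values were known, carry no test and say nothing of protein.

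**Figure D4:**
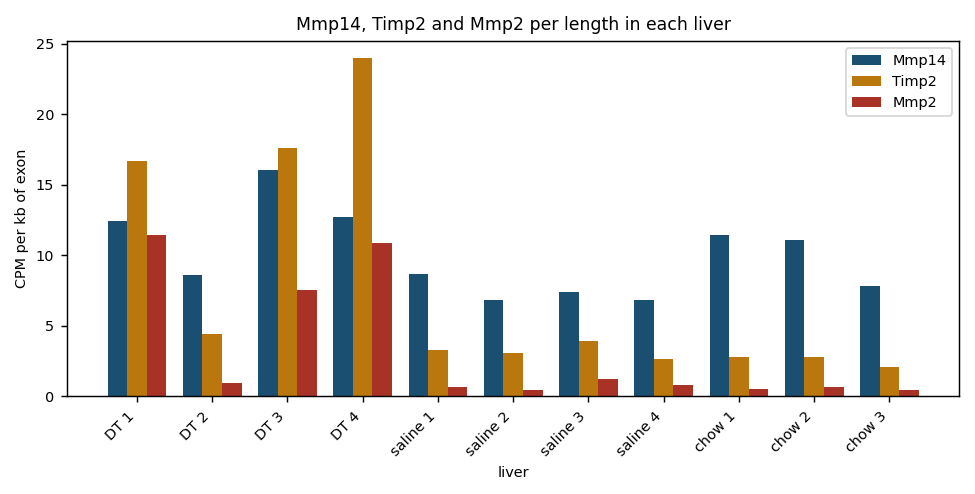
CPM per kilobase of exon (y axis, from 0) of Mmp14, Timp2 and Mmp2 in each liver, with DT livers at the left, saline livers in the middle and chow livers at the right. In DT livers 1, 3 and 4 the Timp2 bar is taller than the Mmp14 bar, and in each other liver it is shorter.

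Ordered by mean level per kilobase, the set changed its leading genes in DT livers. The first 6 were Mmp19, Mmp7, Timp2, Timp3, Mmp14 and Mmp15 in DT livers (22.1, 16.3, 15.7, 12.6, 12.5 and 10.4 CPM per kb). In saline livers they were Mmp19, Mmp15, Mmp14, Timp3, Timp2 and Adamts1 (25.9, 10.9, 7.45, 3.78, 3.25 and 2.64 CPM per kb). In chow livers they were Mmp19, Mmp14, Mmp15, Timp3, Mmp11 and Timp2 (18.4, 10.1, 6.95, 4.27, 2.92 and 2.54 CPM per kb). Mmp7 held place 2 in DT livers and place 38 of 42 in saline livers, and its mean in DT livers hides the spread between liver 2 and the rest.

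The comparison of saline with chow livers asks what western diet with alcohol changed in mice given saline in place of DT. As the chow labels name no injections, diet, alcohol and injections cannot be told apart here. Mmp12 and Mmp15 rose, and the other 37 tested genes were not called. None fell by edgeR, DESeq2 or limma-voom with all livers in the fit, and 2 were lower at an unadjusted p below 0.05. With saline and chow livers alone in the edgeR fit, Mmp11 was called lower. Mmp12, the macrophage metalloelastase, had the largest log2 fold change of the set between these groups. Timp2, Timp3, Mmp2 and Adamtsl2, which rose in DT livers, had log2 fold changes from -0.19 to 0.53 here and were not called. The 2 genes called are 5.13% of the 39, beside 2.45% of all tested genes that rose and 3.13% that fell (5.58% in all).

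Mmp12 had 22, 7.28, 15.0 and 25 CPM in DT livers 1 to 4 and 8.66, 4.15, 24.6 and 1.62 CPM in saline livers 1 to 4, against 0.155, 0.491 and 0.600 CPM in chow livers 1 to 3. All saline livers were above all chow livers, and they spread widely among themselves, with liver 4 lowest and liver 3 highest. The log2 fold change of saline over chow was 4.53 (SE 0.93, adjusted p = 0.0176), and without chow liver 1, 2 or 3 the gene was not called (adjusted p = 0.0898, 0.0803 and 0.0579). limma-voom did not call it either (adjusted p = 0.235), nor did edgeR without a filter or with saline and chow livers alone in the fit. DT over saline was not called for Mmp12 (log2 fold change 0.83, SE 0.66, adjusted p = 0.387), except without saline liver 3 (adjusted p = 0.0491). Trem2, a receptor of lipid-associated macrophages, had 14.3, 4.66, 9.67 and 16.3 CPM in DT livers 1 to 4, against 1.92, 0.854, 3.40 and 0.724 CPM in saline and 0.927, 1.31 and 0.877 CPM in chow livers. Within the 4 DT livers and within the 4 saline livers, Mmp12 and Trem2 put the livers in the same order, a match chosen after the values were seen. The 6 lipid-associated macrophage markers summed to 43.6 to 114 CPM in saline and 25.8 to 46.0 CPM in chow livers. None was called by edgeR or limma-voom, 1 by DESeq2 and 1 at an unadjusted p below 0.05, and their part in the Mmp12 result was not tested. Mmp1b, which overlaps Mmp12 on the other strand, had no counts.

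Mmp15 was the other gene called in saline over chow livers (log2 fold change 0.65, SE 0.15, adjusted p = 0.0248). Its saline livers, given above, were all above the chow livers. The call ended without chow liver 1, 2 or 3 (adjusted p = 0.131, 0.0852 and 0.0562) and without saline liver 2 (adjusted p = 0.0533). Mmp13 (collagenase-3, which opens fibrillar collagen) had 1.58, 0.707, 1.10 and 2.27 CPM in DT livers 1 to 4 and 0.815, 0.244, 1.02 and 0.0852 CPM in saline livers 1 to 4, against 0, 0 and 0.0923 CPM in chow livers 1 to 3. Saline liver 4 was within the chow range, and Mmp13 missed the threshold (log2 fold change 4.05, SE 1.12, adjusted p = 0.0593). It was called without saline liver 4 or DT liver 2 (adjusted p = 0.0393 and 0.0417). In DT over saline livers its log2 fold change was 1.38 (adjusted p = 0.183). Mmp11 was lower in saline than in chow livers without overlap but was not called (4.94 to 5.99 CPM in saline and 6.71 to 9.50 CPM in chow livers, log2 fold change -0.57, adjusted p = 0.115). Chchd10, which overlaps 5.6% of Mmp11 exon bases on the other strand, was at 465 to 638 CPM in saline and 719.6 to 774 CPM in chow livers, and its part in the Mmp11 values was not tested. Saline and chow livers did not overlap in 11 of the 39 genes, 9 higher and 2 lower in saline, beside 30.4% of all tested genes in either direction.

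The log2 fold changes of saline over chow were 0.35 for Timp2, -0.18 for Timp3, 1.69 for Timp1, 0.53 for Mmp2, -0.45 for Mmp14, 0.66 for Adamts1, 0.62 for Adamts2 and -0.19 for Adamtsl2. None was called (adjusted p from 0.204 to 0.888), except Adamts1 without DT liver 2 (adjusted p = 0.0373) and with saline and chow livers alone in the fit (adjusted p = 0.0112). Adamtsl3, with 4 counts over the chow livers, stood at 3.07 (adjusted p = 0.0954). Without DT liver 2, which changes the estimate of the spread, 6 genes were called in this comparison (Adamts1, Adamts12, Adamtsl3 and Mmp13 besides Mmp12 and Mmp15). With saline and chow livers alone in the fit, 8 of 33 tested genes were called, and Mmp12 was not among them. Of all tested genes, 11.4% were called without DT liver 2 and 20.1% with saline and chow livers alone, against 5.58% with all livers.

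**Figure D5:**
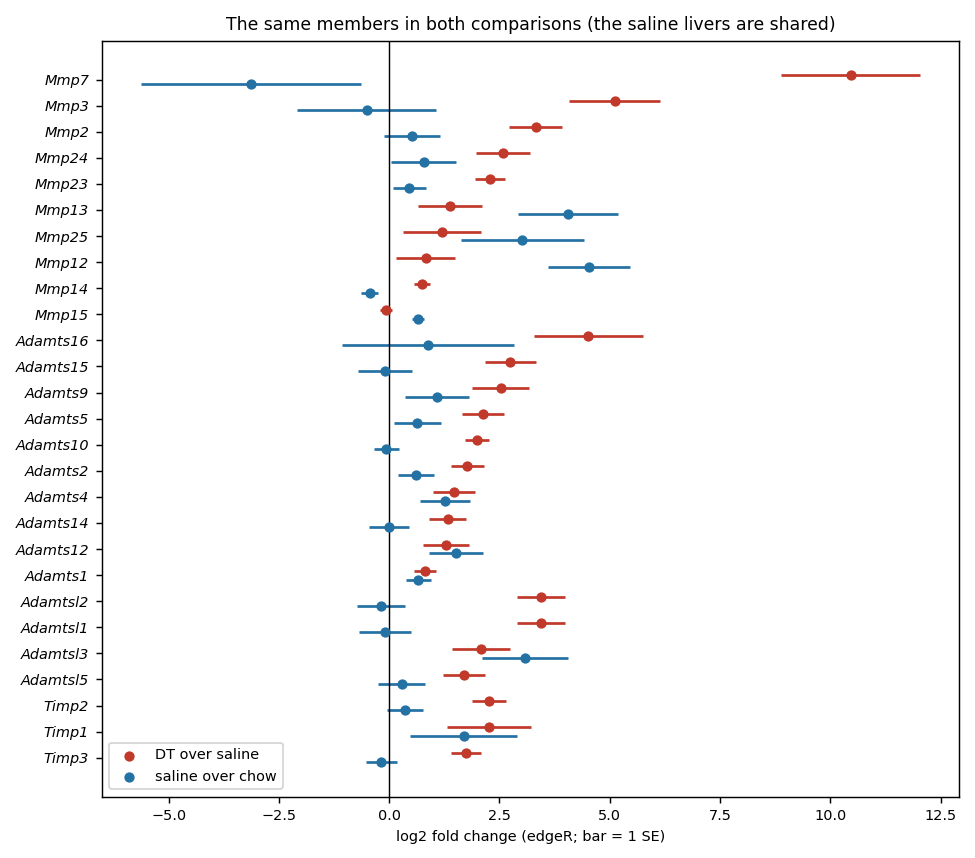
Log2 fold changes (x axis, bars 1 SE) of DT over saline livers (red) and of saline over chow livers (blue) for the 27 genes called in at least 1 comparison. Mmp12, Mmp13, Mmp15, Mmp25, Adamts12 and Adamtsl3 have the larger blue values, whereas Adamtsl2, Timp2, Timp3 and Mmp2 have blue values from -0.19 to 0.53 and larger red ones. Both colours share the saline livers.

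The comparison of DT with chow livers adds diet, alcohol, injections and DT together and shares its livers with the other comparisons. Of the 39 tested genes, 25 rose and none fell (1 was lower at an unadjusted p below 0.05, none by DESeq2 or limma-voom), beside 14.8% of all tested genes that rose and 8.16% that fell. Of the 21 genes that rose over saline, 19 also rose over chow, and Adamts14 and Mmp14 were not called over chow (1.31 and 0.30, adjusted p = 0.0582 and 0.296). Both were called higher over chow without DT liver 2 and under total count scaling, and Adamts14 also without DT liver 1, by DESeq2 and with upper quartile factors. Adamts12, Mmp12, Mmp13, Mmp15, Mmp25 and Timp1 were called over chow and not over saline. Among the 25, Mmp3, Mmp7, Adamts16, Mmp25 and Timp1 could enter the test only through the DT livers. DT and chow livers did not overlap in 23 of the 39 genes, all higher in DT, beside 14.8% of all genes that were higher without overlap. The 23 include Mmp3, Mmp7, Mmp25 and Timp1, so this count too is partly fixed by the filter.

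Mmp12 and Mmp13 had the largest of these 6 differences, with log2 fold changes of 5.36 and 5.43 (SE 0.96 and 1.12, adjusted p = 0.00513 and 0.00795). Every DT liver, liver 2 included, was above all chow livers in both. The rise of Timp1 over chow (3.95, adjusted p = 0.0386) was lost without chow liver 1, 2 or 3, DT liver 1, 3 or 4 or saline liver 1 (highest adjusted p = 0.125). Adamts12 had 1.91, 0.333, 1.86 and 2.64 CPM in DT livers 1 to 4, against 0.530, 0.854, 0.951 and 0.426 CPM in saline and 0.155, 0.287 and 0.277 CPM in chow livers. Its DT livers were all above the chow livers (log2 fold change 2.80, adjusted p = 0.0111), and the call ended without chow liver 1 (adjusted p = 0.0526). Mmp25, a membrane-bound protease known from leukocytes, was at 0.418, 0.0832, 0.254 and 0.504 CPM in DT livers, against 0.285, 0.0407, 0.219 and 0 CPM in saline and 0, 0.0409 and 0 CPM in chow livers. With 88 counts in DT and 2 in chow livers the ratio was 22.1, with a 95% exact binomial interval of 5.93 to 185, and its call (adjusted p = 0.0413) was kept only without DT liver 2 or saline liver 1, 2 or 4 (highest adjusted p = 0.131). The rise of Mmp15 over chow (0.58, adjusted p = 0.0166) was lost without chow liver 1 or 2 (adjusted p = 0.0813 and 0.0511).

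Among the genes called over both saline and chow, some calls over chow were also lost when 1 liver was left out. Timp3 and Mmp3 lost theirs without chow liver 1 (adjusted p = 0.0563 and 0.0666) or chow liver 2 (adjusted p = 0.0524 and 0.0680). Adamts15 and Adamts16 lost theirs without chow liver 1, 2 or 3 (highest adjusted p = 0.0654 and 0.101), and so did Adamtsl5, which also lost it without DT liver 4 (highest adjusted p = 0.0889). Of the 25 genes, 16 were called in every refit without 1 liver in which they were tested, Mmp2, Mmp7, Mmp12, Mmp13, Adamts2, Adamtsl2 and Timp2 among them. Mmp7, which passed the filter only through the DT livers, was tested in 8 of the 11 refits. Without DT liver 2 the count was 32, of which 31 were higher and Mmp11 was lower. The genes added to the 25 were Adamts3, Adamts7, Adamts14, Adamtsl4, Mmp11, Mmp14 and Mmp17. Without chow liver 1 the count was 16, and limma-voom called 13. Of all tested genes, 23.0% were called with all livers, 40.3% without DT liver 2, 10.1% without chow liver 1 and 16.4% by limma-voom.

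Mmp8, Mmp17, Mmp27 and Mmp28 were low and were not called by edgeR in any comparison with all livers and TMM factors. Mmp8 was called higher in DT over saline livers by limma-voom, under total count scaling and without saline liver 3, and Mmp17 in DT over chow livers under total count scaling and without DT liver 2. Mmp8 (the neutrophil collagenase) had 0.209, 0.208, 0.226 and 0.398 CPM in DT livers 1 to 4, against 0, 0, 0.110 and 0.0426 CPM in saline and 0.0515, 0.287 and 0 CPM in chow livers. DT livers were above all saline livers, but 3 of the 4 were below chow liver 2, and the log2 fold change over saline was 2.67 (adjusted p = 0.0816). Mmp17 and Mmp28 had log2 fold changes of 0.94 and 1.07 over saline (adjusted p = 0.221 and 0.144), and Mmp27 had 0.32 (adjusted p = 0.665).

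Other genes of matrix turnover were read from lists put together with earlier results of these data known. In DT over saline livers, 14.3% of all tested genes rose and 7.62% fell. Of 17 matrix proteins that these proteases cut or bind, 14 rose in DT over saline livers, none fell (1 by DESeq2) and 3 were not called. The median of their log2 fold changes was 1.68. Eln (elastin) rose by 3.85, Vwf (the substrate of Adamts13) by 1.49, Bgn (biglycan) by 1.58 and Col1a1 by 2.84 (adjusted p = 0.00177, 0.00422, 0.00680 and 0.00766). Vcan (versican), cut by the proteoglycan-cutting Adamts proteases, was not called (0.57, adjusted p = 0.673). Of 12 genes of the plasminogen system, which activates several metalloproteinases, 11 were tested, 4 rose (Plat, Plgrkt, Serpine2 and Plaur) and 1 fell (Lrp1, a receptor that clears proteases). Plat, the tissue activator, rose by 4.98 and Plaur, the urokinase receptor, by 1.28 (adjusted p = 0.00633 and 0.0236). Of 15 other metalloproteinases, 11 were tested, Adam15 and Adam8 rose and Adam9 fell (1.19, 2.93 and -0.56, adjusted p = 0.00699, 0.00932 and 0.0258). By share, 18.2% of the 11 rose and 9.09% fell, near the shares over all tested genes. Of 16 regulators, 15 were tested, 3 rose and 3 fell. Among these, Pcolce, which speeds removal of the carboxy-terminal propeptide of procollagen, rose by 1.53, while its relative Pcolce2 changed by -2.12 (adjusted p = 0.00799 and 0.00321). Pzp, a plasma protease inhibitor, changed by -0.67 and Pcsk6, a proprotein convertase, by -0.91 (adjusted p = 0.0114 and 0.0123). Reck, a membrane-bound inhibitor of metalloproteinases, was not called (0.27, adjusted p = 0.446).

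In saline over chow livers, Tnc (tenascin C) was the 1 matrix protein of the 17 that rose (2.76, adjusted p = 0.0272) and none fell. In this comparison 2.45% of all tested genes rose and 3.13% fell. In the plasminogen system Anxa2 rose and Serpine2 fell (2.53 and -1.67, adjusted p = 0.00100 and 0.00380). Bmp1, which removes the carboxy-terminal propeptide of procollagen, fell (-0.80, adjusted p = 0.0167), and it was the 1 of 11 other metalloproteinases called. None of the 15 tested regulators was called by edgeR, DESeq2 or limma-voom, and 2 were lower at an unadjusted p below 0.05. In DT over chow livers, 14 of the 17 matrix proteins rose and 1 fell, and 6 of 11 plasminogen genes rose and 3 fell. Of the other metalloproteinases 3 of 11 rose and 2 fell, and of the regulators 2 of 15 rose and 4 fell. Over all tested genes, 14.8% rose and 8.16% fell in DT over chow livers.

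Markers of the cells that could make these proteins moved in part with the set. Their counts in DT over saline livers stand beside 14.3% of all tested genes that rose and 7.62% that fell. Of 8 stellate cell markers 1 rose in DT over saline livers (Des, 1.14, adjusted p = 0.00643) and none fell. By limma-voom 1 was lower, and 1 was lower at an unadjusted p below 0.05. The summed level of the 8 was 238 to 312 CPM in DT, 236 to 367 CPM in saline and 205 to 239.8 CPM in chow livers. Of 6 portal fibroblast markers 2 rose (Mfap4 and Fbln2, 4.10 and 2.53, adjusted p = 0.00333 and 0.00678) and 1 fell (Gas1, -0.93, adjusted p = 0.0230). Their summed level was 26.9 to 59.4 CPM in DT, 25.1 to 37.4 CPM in saline and 17.8 to 27.1 CPM in chow livers, with the lowest DT value in liver 2. All 6 lipid-associated macrophage markers rose, with a summed level of 84.6 to 547 CPM in DT livers, against the saline and chow values above. That sum includes Spp1, which is also on the cholangiocyte list (272.7, 19.7, 174 and 313 CPM in DT livers 1 to 4). All 6 Kupffer cell markers fell, with 111 to 184 CPM in DT, 265 to 369.9 CPM in saline and 253 to 333 CPM in chow livers. Of 6 sinusoidal endothelial markers 2 fell (Oit3 and Stab2), while 4 were lower by DESeq2, 4 by limma-voom and 5 at an unadjusted p below 0.05. None of the 6 hepatocyte markers was called by edgeR or limma-voom (1 by DESeq2 and 1 at an unadjusted p below 0.05, both lower). No marker on these lists was at 0 in all DT livers. In saline over chow livers, edgeR called Lrat, a stellate cell marker (0.92, adjusted p = 0.00487), and Entpd2, a portal fibroblast marker (1.38, adjusted p = 0.0309), both higher. The part of any of these cells in the changes of the set was not tested.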

How the data were processed

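Whole-liver RNA libraries of 11 mice were used: 4 DT, 4 saline and 3 chow livers, grouped by the labels. The labels' protocols also describe a preparation of CD45+ cells, although these samples are labelled as liver. The authors deposited 1 table of raw counts per gene, with no normalization. The submitters' processing notes name FastQC, STAR, featureCounts and the GRCm39 build. Versions, annotation, strand setting and whether both mates of a pair were counted are not given in the sources used here.

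Counts were tested in R 4.3.3 with edgeR 4.0.16 (filterByExpr, TMM factors, robust quasi-likelihood fit with 1 mean per group over all 11 libraries, 8 residual degrees of freedom, common biological coefficient of variation 30.1%), and p-values were adjusted over 17038 genes. Alternatives used DESeq2 1.42.0, limma 3.58.1 (voom), other scalings and filters, halved counts, the compared groups alone, a replicate block and refits without each liver. The edgeR step was tested on simulated data. Exon lengths and overlapping genes came from GENCODE M21 (GRCm38), another build, by gene ID, in which 51 of 51 rows matched, and promoters from RefSeq (GRCm38.p6). An exact binomial interval of a ratio used the summed counts of both groups. No 2 libraries of the same group agreed within sampling noise, and libraries of different groups were not compared in this way.

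The genes, the lists and the alternatives were chosen with earlier results of these data known. Values are given for each gene called in any comparison and for Mmp2, Mmp9, Mmp12, Mmp13, Mmp14, Timp1, Timp2, Timp3, Adamts1, Adamts2 and Adamtsl2. Livers of the western diet without alcohol were not analysed here.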

Additional observations from a re-analysis of the deposited data

Results flagged for a closer look

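Within the groups of 4 livers, 78 sets of log2 CPM values were screened for a liver far from the other 3 by Dixon's gap test, which chance passes in about 1 of 20 sets, and 12 stood out. DT liver 2 was far below the other DT livers in 5 genes, with log2 CPM of -0.2 for Adamts15, -0.27 for Adamts4, 0.05 for Adamtsl1, -1.43 for Adamtsl3 and 1.75 for Mmp2. DT liver 1 was far above the others in Adamts7 (4.29), and DT liver 4 in Mmp8 (-1.2). Among the saline livers, liver 3 was far above the others in Adamts1 (4.15), Adamts13 (2.62) and Adamts2 (2.97). Saline liver 1 in Mmp3 (-3.68) and saline liver 4 in Mmp7 (-3.65) stood apart because each held the 2 counts found in that group.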

How the results depend on the processing

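The count of genes called in DT over saline livers was 21. It was 19 to 25 under RLE, upper quartile or total count scaling, other filters, halved counts and DESeq2, 16 with the compared groups alone and 11 by limma-voom. Without 1 liver it was 13 to 25. In saline over chow livers the count of 2 became 3 under total count scaling, 1 without a filter, 4 by DESeq2, 1 by limma-voom and 8 with the compared groups alone (7 higher and Mmp11 lower), and 0 to 6 without 1 liver, with 0 without any 1 chow liver. In DT over chow livers the count of 25 became 13 by limma-voom and 16 to 32 without 1 liver, and was 21 to 32 under the other settings but the block. Of the genes called, 8 of 21, 0 of 2 and 9 of 25 were called under every setting that tested them, in these 3 comparisons. Mmp3, which passed the filter only through the DT livers, is among the 8. Without 1 liver, 10.5 to 40.3, 1.62 to 11.4 and 10.1 to 40.3% of all tested genes were called in the 3 comparisons. Total count scaling moved the median log2 fold change of all genes by 0.34, 0.13 and 0.46, and the share of calls that were higher was 92.1, 67.0 and 94.8%, against 65.2, 43.9 and 64.5% with TMM. With upper quartile factors it was 75.7% in DT over saline and 77.6% in DT over chow livers. The sign turned for Mmp9 in DT over saline livers (0.02 with total counts), for Adamtsl2 in saline over chow livers (0.07 without chow liver 3) and for Mmp9 in DT over chow livers (-0.33 without chow liver 3, -0.02 without DT liver 1 and -0.04 without DT liver 3, in a range of -0.33 to 0.33 without 1 liver), none of them called, and the cause was not tested.

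The labels' replicate numbers gave no clear sign of paired livers, though low correlations cannot exclude pairing. Deviations of same-numbered livers correlated at 0.08, 0.17, 0.18 and -0.16 in DT and saline, at 0.04, -0.05 and 0.00 in saline and chow, and at 0.05, -0.12 and -0.06 in DT and chow livers. A replicate block gave 15, 2 and 12 calls in the 3 comparisons, and 4 of 8, 2 of 6 and 1 of 6 livers correlated best with their own number. In the comparisons with chow livers the block fit left out DT liver 4 and saline liver 4, as no chow liver has that number. Those counts therefore also come from fewer livers. Depth limits genes near 3 counts (0.0397 to 0.0772 CPM), such as Mmp3, Mmp25 and Timp4, where no absence can be read from 0 counts. With 3 or 4 livers a group, genes that were not called are not shown to be equal.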

Other observations

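Saline livers also differed among themselves. Saline liver 3 was the highest saline liver in 25 of the 39 tested genes and lay above all chow livers in 28. It also stood apart from the other saline livers across the most variable genes. Its first principal component was -10.3, against -22.7, -26.0 and -31.0 in saline livers 1, 2 and 4. The counts were not made over all tested genes, so whether they are particular to this set was not tested. The same liver had the highest Trem2 among the saline livers (1.92, 0.854, 3.40 and 0.724 CPM in saline livers 1 to 4). It was chosen after its values were seen, and the cause was not tested.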
